A study of Mus musculus with 16 samples.

Results

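Long intergenic noncoding RNAs (lincRNAs) and antisense RNAs were followed through the change of mouse bone marrow macrophages into osteoclasts. Members were all genes that the deposited tables type as lincRNA or antisense and that the authors' filter on low counts kept. There were 151 of them among the 10954 genes kept in either experiment, 95 lincRNAs and 56 antisense RNAs. The SREBP2 experiment kept 140 members, the IRF7 experiment 134, and 123 were kept in both. The cells came from female mice. The labels give no age, and the study gives ages for cultures of these genotypes without tying one to the sequenced cells. SREBP2dM cells carried floxed Srebf2, which encodes SREBP2, together with LysM-Cre, so that the deletion is driven by a promoter active in myeloid cells. Their LysMCre controls carried that Cre alone. IRF7KO cells came from mice deficient in IRF7 in all tissues and were set against C57BL6 wild-type cells. All 8 groups grew with M-CSF from L929 cell medium (23.3 ng/ml), and the RANKL groups had RANKL as well for 3 days, at 40 ng/ml per the labels, while the methods of the study give another dose. Each group had 2 libraries of poly(A)-selected, stranded mRNA. The labels call them biological replicates, but nothing says that each had its own mouse or dish. The tests therefore measure the spread from library to library, which may be technical.

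A lincRNA gene lies between protein-coding genes, whereas an antisense gene overlaps a coding gene on the opposite strand. Some members of both classes are spliced and exported, others stay in the nucleus as scaffolds or silencers, and some are host transcripts that are cut to release microRNAs or small nucleolar RNAs. RANKL, the cytokine that turns macrophages into bone-resorbing osteoclasts, acts through NF-κB, AP-1 and NFATc1, while M-CSF keeps the macrophages alive and PU.1 sets their identity.

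In their position 50 of the 56 antisense members overlapped a coding gene on the other strand, as did 7 of the 95 lincRNAs. In addition, 8 of the lincRNAs, Zfp469 and Gm4316 among them, overlapped a coding gene on the same strand, where reads cannot be told apart by strand. A coding gene started head to head within 1 kb of 9 lincRNAs and 5 antisense members. The median length of merged exons was 2516 bases for lincRNAs and 2242.5 bases for antisense RNAs, and 12 and 11 of them had a single exon.

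Of the members, 6 host 12 microRNA genes. The mature sequences below, from RefSeq for GRCm38.p6, are shown because each belongs to a host transcript whose level is given later, and the capitals mark the seed (bases 2 to 8), the part that pairs with targets. F630028O10Rik hosts miR-223, a microRNA known from myeloid cells, and Mir142hg hosts miR-142, known from blood cells.
mmu-miR-223-3p: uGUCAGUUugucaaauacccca
mmu-miR-142a-3p: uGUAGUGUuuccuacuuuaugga

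Mir17hg is the host of the miR-17 to miR-92 cluster, known for promoting proliferation. Its members fall into 4 seeds, of which 2 are shared by a pair each: miR-17 and miR-20a have the same seed, as do miR-19a and miR-19b.
mmu-miR-17-5p: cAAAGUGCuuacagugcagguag
mmu-miR-20a-5p: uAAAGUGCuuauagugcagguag
mmu-miR-18a-5p: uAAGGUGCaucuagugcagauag
mmu-miR-19a-3p: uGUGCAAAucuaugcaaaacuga
mmu-miR-19b-3p: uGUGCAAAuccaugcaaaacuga
mmu-miR-92a-3p: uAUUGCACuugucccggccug

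Ftx, a noncoding gene beside Xist that is known to promote Xist expression, holds miR-374b and miR-421. The libraries measure the poly(A) host transcripts, not these mature microRNAs.
mmu-miR-374b-5p: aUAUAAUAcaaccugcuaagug
mmu-miR-421-5p: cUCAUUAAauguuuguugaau

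Library totals ran from 7703178 to 13387849 counts, so that a single count was 0.0708 to 0.139 CPM (TMM-scaled counts per 1e+06 counts). Members took 0.459% to 0.784% of all counts, of which Gm42418, a gene that holds ribosomal RNA sequence, was 0.228% to 0.493% of all counts. Srebf2 was at 0.835 and 0.131 CPM in SREBP2dM RANKL cells against 281 and 250 CPM in LysMCre RANKL cells, and at 0.963 and 0.88 against 233 and 266 CPM in M-CSF. Irf7 was at 2.11 and 0.517 CPM in IRF7KO RANKL cells against 55.1 and 43.3 CPM in C57BL6 RANKL cells, and at 0.959 and 0.325 against 80.8 and 61.5 CPM in M-CSF. The genotypes therefore match the labels. All 12 osteoclast markers, among them the protease gene Ctsk and the phosphatase gene Acp5, were higher with RANKL in all 4 genotypes. Of 12 macrophage markers 9, 9, 11 and 11 were called lower in SREBP2dM, LysMCre, IRF7KO and C57BL6 cells, in that order, and 1, 1, 1 and 0 higher. The summed level of 9 neutrophil markers was 4.87 to 20.3 CPM in RANKL libraries and 70.1 to 1269 CPM in M-CSF libraries, and none of the 9 was at 0 in both libraries of a group. In these bulk cultures, fewer cells of a type and less RNA per cell cannot be told apart. The summed level of 5 B cell markers was 0.835 to 7.81 CPM in RANKL libraries and 14.5 to 74.4 CPM in M-CSF libraries, and all kept ones were called lower with RANKL, 2 of 2 in each genotype of the SREBP2 experiment and 4 of 4 in each of the IRF7 experiment. Neutrophil and B cell markers thus moved with the members that fell, and their part in those falls was not tested. The 5 T cell markers summed to at most 0.975 CPM in any library.

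RANKL changed over 50% of the kept members in each genotype, and more members rose than fell. In SREBP2dM cells 85 of 140 members were called (edgeR adjusted p under 0.05), 55 higher and 30 lower with RANKL, where 56.2% of all 10764 genes were called, 28.6% higher and 27.6% lower. In LysMCre cells 90 of 140 were called, 58 higher and 32 lower, where 57.7% of all genes were called, 29% higher and 28.6% lower. In IRF7KO cells 74 of 134 were called, 44 higher and 30 lower, where 49.3% of all 10788 genes were called, 25.8% higher and 23.5% lower. In C57BL6 cells 80 of 134 were called, 52 higher and 28 lower, where 47.4% of all genes were called, 24.9% higher and 22.5% lower. The members' own shares of calls were 60.7%, 64.3%, 55.2% and 59.7%. All 4 lay above the share over all genes, least in SREBP2dM and most in C57BL6 cells. The IRF7KO and C57BL6 counts were lowest in fits without an M-CSF library of the same genotype. The share of all genes called fell in those fits too.

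The filter bears on these counts. As tested on the tables, the authors' filter kept genes whose mean reached about 3 CPM in at least 1 group, with 2 kept genes below and 4 dropped genes at or above that level in the SREBP2 experiment and 5 and 2 in the IRF7 experiment. This left 7.06% of the 1983 counted members but 70.9% of coding genes in the SREBP2 experiment, and 6.43% of 2083 members but 70% of coding genes in the IRF7 experiment. A member that is low everywhere but in 1 group passed only through that group, and so had to differ. The same holds for a member under about 3 CPM in all groups of 1 treatment. Its p-value for RANKL is then no independent evidence of a change. Among members whose mean over all 8 libraries reached 3 CPM, the share called was 56.7% in SREBP2dM, 56.7% in LysMCre, 44.8% in IRF7KO and 50.6% in C57BL6 cells, where genes of that level gave 56%, 57.4%, 48.7% and 46.9%. At that level the median size of the log2 fold change was 0.879, 0.937, 0.645 and 0.746 for members and 0.541, 0.548, 0.463 and 0.446 for all genes, in the same order of genotypes.

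**Figure D1:**
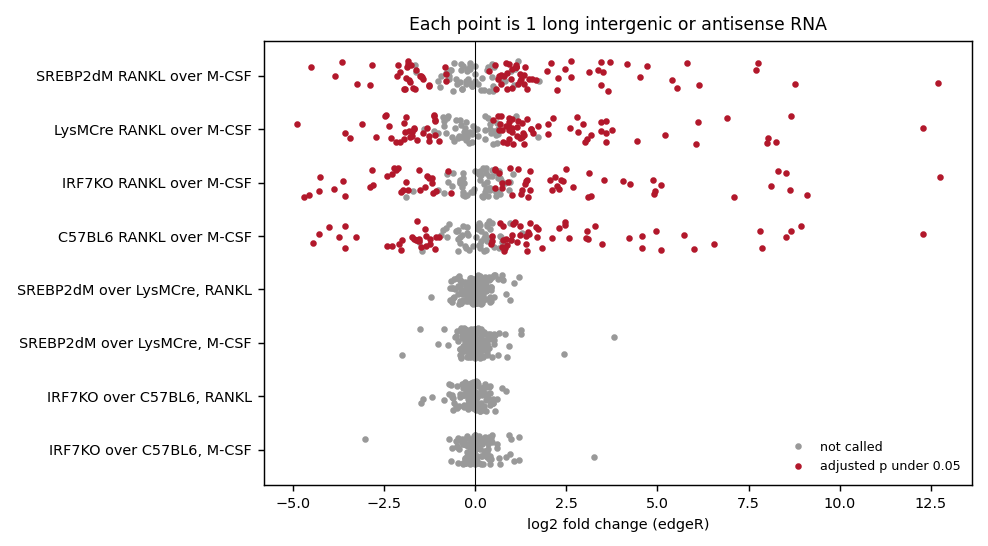
The log2 fold change of each lincRNA or antisense RNA (x axis, edgeR) is shown for RANKL over M-CSF in 4 genotypes and for deficient over control cells in each treatment, with red points at an adjusted p under 0.05. The RANKL comparisons hold 74 to 90 red points each and the genotype comparisons none, and fitted values far to the right belong to members with 0 or few counts in M-CSF.

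The members that rose most were almost silent in M-CSF cells. They passed the authors' filter only through RANKL groups, so a rise was built into their selection. The p-values given for them are no independent evidence of it. 4833415N18Rik, a lincRNA of 3 exons at chr16:11778429-11781500 (mm10, plus strand) and 22221 bases from the nearest kept coding gene Cpped1, had 95.5 and 68.2 CPM in SREBP2dM RANKL cells and 75.9 and 46.2 CPM in LysMCre RANKL cells, against 0 counts in all 4 M-CSF libraries. It had 96.1 and 59.3 CPM in IRF7KO RANKL cells and 70.9 and 41 CPM in C57BL6 RANKL cells, again against 0 in all M-CSF libraries. Every RANKL library thus lay far above every M-CSF library. With 3 counts per group taken as the floor, the rise was at least 503-fold in SREBP2dM, 534-fold in LysMCre, 532-fold in IRF7KO and 433-fold in C57BL6 cells, with edgeR adjusted p of 8.9e-05, 7.9e-05, 0.00015 and 0.00018.

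C730036E19Rik, a lincRNA at chr1:151138034-151142345, and Gm11816, an antisense RNA at chr4:9283972-9287391 inside Clvs1, were at 0 in all 8 M-CSF libraries too. C730036E19Rik had 2.37 and 2.89 CPM in SREBP2dM, 1.98 and 4.33 in LysMCre, 6.52 and 5.78 in IRF7KO and 4.22 and 4.9 in C57BL6 RANKL cells. Its rise was at least 16.3-fold, 29.2-fold, 42.3-fold and 38.5-fold in that order. Gm11816 had 2.37 and 2.75 CPM in SREBP2dM, 3.33 and 4.16 in LysMCre, 1.74 and 5.34 in IRF7KO and 1.28 and 3.6 in C57BL6 RANKL cells. In both genes the edgeR adjusted p was 0.011 or less in each genotype.

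2310069B03Rik, on chromosome 6, had 4.73 and 4.46 CPM in SREBP2dM RANKL cells against 0.12 and 0.196 CPM in M-CSF, a ratio of 28.4 (95% counting interval 9.31 to 141). In LysMCre cells it had 3.85 and 2.51 CPM with RANKL and 0 counts without, at least a 27.9-fold rise, and the rise was at least 21.2-fold in IRF7KO and 21-fold in C57BL6 cells. It passed in all 4 genotypes (edgeR adjusted p 0.00012 to 0.0012). A330074K22Rik, at chr8:120204434-120228230, starts 226 bases from Gse1 and is transcribed away from it. It had 4.59 and 4.72 CPM in SREBP2dM RANKL cells against 0 and 0.0978 CPM in M-CSF (ratio 86.4, interval 15 to 3.46e+03), and 9.83 and 6.72 against 0 and 0.108 CPM in IRF7KO cells (ratio 170, interval 30.2 to 6.76e+03). It had 5.83 and 6.15 CPM in LysMCre RANKL cells against 0.0788 and 0.0708 CPM in M-CSF (ratio 80.5, interval 21.8 to 672), and 8.82 and 8.5 against 0.0793 and 0.0817 CPM in C57BL6 cells (ratio 107, interval 29.2 to 891). Gse1 itself, with log2 fold changes of 0.22, 0.19, 0.23 and 0.29, was not called in any genotype. The intervals cover counting error only.

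AI463229, a lincRNA on chromosome 13, behaved alike, with 6.13 and 4.59 CPM in SREBP2dM RANKL cells and 5.51 and 3.45 CPM in IRF7KO RANKL cells, against 0 in the M-CSF libraries of both. Its rise there was at least 33-fold and 30.7-fold. In LysMCre and C57BL6 cells, with 1 and 2 M-CSF counts, the ratios were 155 (interval 27.2 to 6.16e+03) and 58.3 (interval 15.7 to 488). In all, 4 members in SREBP2dM, 5 in LysMCre, 6 in IRF7KO and 6 in C57BL6 cells were called higher while both M-CSF libraries held 0 counts. The filter kept such members only because they were high with RANKL, and their number was not set against that over all genes.

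**Figure D2:**
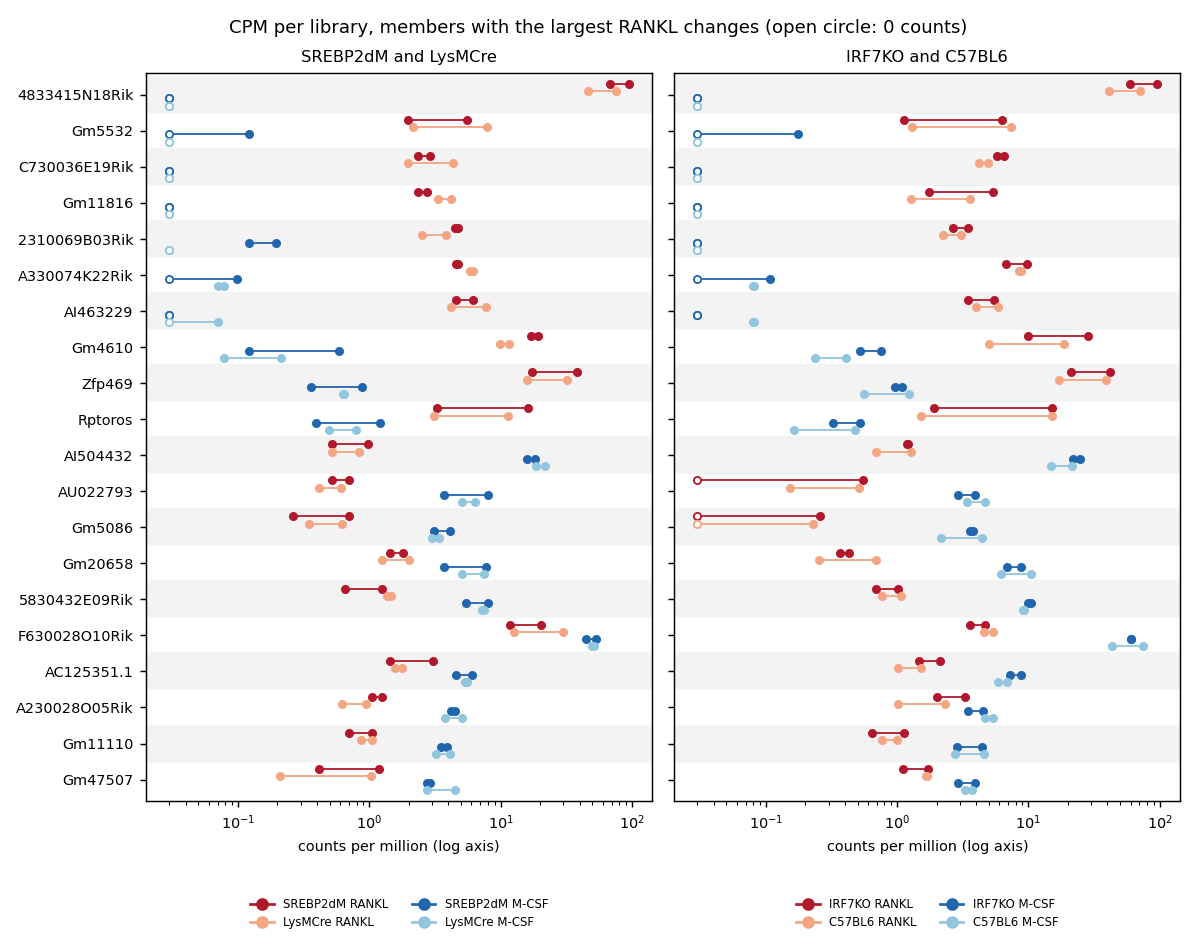
CPM in each library (log axis) of the 20 members with the largest RANKL changes called in both controls, with RANKL libraries in dark and light red, M-CSF libraries in dark and light blue (deficient cells dark, control cells light), and open circles at the left edge for 0 counts. The upper 10 members lie to the right with RANKL and the lower 10 to the left, while the deficient and control libraries of a treatment lie close together.

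Promoters are printed for 3 of the members that rose most, because motif letters of factors active in osteoclasts stood near their start. Each runs from 250 bases before to 50 after the RefSeq start (GRCm38.p6, the NCBI name of mm10), and 77 members had such a start within 2000 bases of the deposited one. Capitals mark the letters TGANTCA (AP-1), GAGGAA (PU.1) and CACGTG (E-box) on either strand. The windows are chr6:82881804-82882103 for 2310069B03Rik, chr8:120228181-120228480 for A330074K22Rik and chr11:119834316-119834615 for Rptoros, all on the minus strand.
2310069B03Rik: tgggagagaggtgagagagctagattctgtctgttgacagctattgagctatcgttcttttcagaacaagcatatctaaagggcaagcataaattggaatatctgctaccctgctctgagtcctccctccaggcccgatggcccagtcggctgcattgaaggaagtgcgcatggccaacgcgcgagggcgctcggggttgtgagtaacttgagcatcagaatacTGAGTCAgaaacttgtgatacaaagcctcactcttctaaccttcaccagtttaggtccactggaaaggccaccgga
A330074K22Rik: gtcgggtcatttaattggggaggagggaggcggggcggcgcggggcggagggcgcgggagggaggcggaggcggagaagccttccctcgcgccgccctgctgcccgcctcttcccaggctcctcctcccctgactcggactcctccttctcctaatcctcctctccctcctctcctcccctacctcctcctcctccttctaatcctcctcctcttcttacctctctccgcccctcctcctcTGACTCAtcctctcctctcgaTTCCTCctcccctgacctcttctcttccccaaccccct
Rptoros: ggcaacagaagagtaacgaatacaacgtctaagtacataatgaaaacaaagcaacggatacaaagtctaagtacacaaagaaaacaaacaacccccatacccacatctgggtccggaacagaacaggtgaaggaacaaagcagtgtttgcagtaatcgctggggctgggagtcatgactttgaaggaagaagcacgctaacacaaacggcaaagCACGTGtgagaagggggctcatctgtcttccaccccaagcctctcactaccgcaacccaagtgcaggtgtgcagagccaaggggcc

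The AP-1 letters began at base -26 from the start in 2310069B03Rik and at -9 in A330074K22Rik, which also held the PU.1 letters at base 13, and the E-box letters stood at -36 in Rptoros. TGANTCA occurred in 11.5% of the 26 matched members called higher in both controls, in 7.79% of all 77 matched members and in 7.81% of all 32817 RefSeq promoters. For CACGTG the shares were 19.2%, 14.3% and 7.15%. GGAAA, the core letters of NFAT sites, stood in 53.8%, 62.3% and 61.3%, and GAGGAA in 23.1%, 27.3% and 28.3%. Such matches describe letters, not bound sites, and the 26 members were picked by their change.

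Gm4610, Zfp469 and Rptoros had some M-CSF counts in every genotype, but under the filter's level of about 3 CPM. They and Gm5532 thus also passed only through RANKL groups, so a rise was built into their selection too. The p-values given for these members are no independent evidence of it. Gm4610, antisense to Bcar3 at chr3:122377097-122391811, had 17 and 19.2 CPM in SREBP2dM RANKL cells against 0.12 and 0.587 CPM in M-CSF, and 11.7 and 9.96 against 0.0788 and 0.212 CPM in LysMCre cells. The log2 fold changes were 5.55 ± 0.42 (SE; edgeR adjusted p = 1.2e-05) and 6.07 ± 0.46 (adjusted p = 1.2e-05). In the IRF7 experiment Gm4610 had 28.3 and 9.91 CPM in IRF7KO RANKL cells against 0.523 and 0.758 CPM in M-CSF, and 18.5 and 5.05 against 0.238 and 0.409 CPM in C57BL6 cells. There the log2 fold changes were 4.89 ± 0.87 in IRF7KO (adjusted p = 0.0024) and 5.11 ± 0.95 in C57BL6 cells (adjusted p = 0.0031). Bcar3, which encodes an adaptor of integrin signalling, rose as well, by log2 fold changes of 1.94, 2.09, 1.11 and 1.18.

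Zfp469, typed as a lincRNA here although its human counterpart codes for a zinc finger protein, had 38 and 17.4 CPM in SREBP2dM RANKL cells against 0.361 and 0.88 CPM in M-CSF, and 32.3 and 15.9 against 0.631 and 0.637 CPM in LysMCre cells. It had 41.6 and 20.9 against 0.959 and 1.08 CPM in IRF7KO cells, and 39.2 and 17 against 0.555 and 1.23 CPM in C57BL6 cells. It rose by log2 fold changes of 5.40 ± 0.66, 5.22 ± 0.62, 4.93 ± 0.62 and 4.95 ± 0.61 in SREBP2dM, LysMCre, IRF7KO and C57BL6 cells (SE; edgeR adjusted p 0.00035 to 0.00042). The 2 RANKL libraries of a group differed widely for it, with replicate 1 above replicate 2 in all 4 RANKL groups. The same order held for Rptoros, Gm5532 and 4833415N18Rik, and for the summed level of the 12 osteoclast markers. That sum was 79038 and 66339 CPM in SREBP2dM and 72694 and 64242 CPM in LysMCre RANKL cells. It was 61333 and 41351 CPM in IRF7KO and 58248 and 32900 CPM in C57BL6 RANKL cells.

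Rptoros, antisense to Rptor, had 16.1 and 3.28 CPM in SREBP2dM and 11.4 and 3.12 CPM in LysMCre RANKL cells, and 15.1 and 1.9 in IRF7KO and 15.1 and 1.53 in C57BL6 RANKL cells. Its M-CSF libraries ranged from 0.163 to 1.2 CPM, so the groups did not overlap. The log2 fold changes were 3.64 ± 1.07, 3.47 ± 1.03, 4.25 ± 1.45 and 4.59 ± 1.49 (SE; edgeR adjusted p = 0.024, 0.025, 0.042 and 0.036). These calls were held in 5, 5, 3 and 3 of 8 fits that left out a library, with adjusted p up to 0.325 in IRF7KO cells, and they were lost without replicate 1 of the RANKL group or without either M-CSF library of the same genotype. In the IRF7 experiment they were lost without either M-CSF library of the other genotype too. Gm5532, at chr1:155520173-155527143, had 5.57 and 1.97 CPM in SREBP2dM RANKL cells (ratio 68.8 to M-CSF, interval 11.9 to 2.77e+03) and rose at least 42.3-fold in LysMCre and 29.7-fold in C57BL6 cells. In IRF7KO cells its ratio was 37.3 (interval 9.99 to 313). Its call was lost without SREBP2dM M-CSF replicate 2 in SREBP2dM cells (adjusted p = 0.0724), and in IRF7KO and C57BL6 cells without RANKL replicate 1 or either M-CSF library of that genotype (adjusted p up to 0.19).

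The filter bears on falling members too. AI504432, AU022793 and Gm11110 were under about 3 CPM in every RANKL library, as was Gm5086 in the IRF7 experiment. They passed only through M-CSF groups there, so a fall was built into their selection. The p-values given for them are no independent evidence of it. Among the members called lower in both controls, AI504432 had the largest mean fall over LysMCre and C57BL6 cells, although the fitted fall of Gm5086 was larger in the IRF7 experiment. This lincRNA, at chr3:107039504-107054347 and 1434 bases from the potassium channel gene Kcna3, had 0.974 and 0.525 CPM in SREBP2dM RANKL cells against 15.8 and 18.4 CPM in M-CSF, and 0.833 and 0.52 against 21.8 and 18.5 CPM in LysMCre cells. In the IRF7 experiment it had 1.19 and 1.21 against 21.9 and 24.8 CPM in IRF7KO cells, and 1.28 and 0.689 against 21.5 and 15 CPM in C57BL6 cells. No RANKL library came near an M-CSF library. The log2 fold changes were -4.50 ± 0.31, -4.89 ± 0.29, -4.27 ± 0.30 and -4.28 ± 0.32 (SE; edgeR adjusted p 3.4e-06 to 4e-05), and Kcna3 fell in all 4 genotypes too.

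AU022793 (chr15:39962649-39967024) had 0.696 and 0.525 CPM in SREBP2dM RANKL cells against 8.07 and 3.71 CPM in M-CSF, and 0.417 and 0.606 against 5.04 and 6.37 CPM in LysMCre cells. It had 0.551 and 0 against 3.92 and 2.92 CPM in IRF7KO cells, and 0.511 and 0.153 against 4.68 and 3.43 CPM in C57BL6 cells. It fell by log2 fold changes of -3.24, -3.43, -3.63 and -3.73 in SREBP2dM, LysMCre, IRF7KO and C57BL6 cells. Gm5086 (chr13:97559971-97583996) fell by -2.89 and -2.72 in SREBP2dM and LysMCre cells. With 3 RANKL counts per group in the IRF7 experiment, its RANKL to M-CSF ratio was 0.0363 in IRF7KO (interval 0.00733 to 0.11) and 0.0441 in C57BL6 cells (interval 0.0089 to 0.133). 5830432E09Rik, antisense to the phosphatase gene Ptpre, had 1.25 and 0.656 against 5.42 and 8.02 CPM in SREBP2dM cells and 0.767 and 1.07 against 9.12 and 9.24 CPM in C57BL6 cells. It fell by -2.82 ± 0.39, -2.37 ± 0.34, -3.57 ± 0.29 and -3.26 ± 0.29, while Ptpre was at -0.15, 0.01, -0.14 and 0.01 and was not called.

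Gm20658, an antisense RNA in the receptor gene Vipr2 at chr12:116102769-116138648, had 0.367 and 0.431 CPM in IRF7KO RANKL cells against 8.8 and 6.93 CPM in M-CSF, and 1.81 and 1.44 against 3.73 and 7.72 CPM in SREBP2dM cells. It fell by log2 fold changes of -4.26 ± 0.48 and -3.99 ± 0.47 in IRF7KO and C57BL6 cells, and by -1.82 ± 0.46 and -1.93 ± 0.43 in SREBP2dM and LysMCre cells. The call in SREBP2dM cells was lost without SREBP2dM M-CSF replicate 2 (edgeR adjusted p = 0.0761). Gm11110, opposite the cytokine gene Tnfsf9, was at 0.643 to 1.12 CPM in the 8 RANKL libraries and 2.77 to 4.58 CPM in the 8 M-CSF libraries. It fell by -2.07, -1.94, -2.02 and -2.02, where the calls in IRF7KO and C57BL6 cells were lost without replicate 2 of their own M-CSF groups (adjusted p = 0.0515 and 0.0554), and Tnfsf9 fell in all 4 genotypes.

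AC125351.1, A230028O05Rik and Gm47507 complete the falling members that the naming rule takes, next to the miR-223 host. AC125351.1, a lincRNA 958 bases from the kinase gene Map3k9, fell by log2 fold changes of -1.25, -1.71, -2.16 and -2.27, and its call in SREBP2dM cells was lost without SREBP2dM RANKL or M-CSF replicate 2 (edgeR adjusted p up to 0.118). A230028O05Rik fell by -1.90 in SREBP2dM, -2.44 in LysMCre and -1.53 in C57BL6 cells, and was at -0.59 in IRF7KO cells (adjusted p = 0.27). Its C57BL6 call was lost without C57BL6 RANKL replicate 1 or either C57BL6 M-CSF library (adjusted p up to 0.0851). Gm47507, 16715 bases from the transcription factor gene Klf6, fell by -1.78, -2.47, -1.27 and -1.06, and these calls were held in 3, 7, 6 and 2 of 8 fits that left out a library, with adjusted p up to 0.204.

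F630028O10Rik, the host of miR-223 at chrX:96239926-96243636, was lower with RANKL in both experiments. It had 20.5 and 11.8 CPM in SREBP2dM RANKL cells against 45 and 53.5 CPM in M-CSF, and 29.8 and 12.6 against 51.6 and 49.2 CPM in LysMCre cells. It had 4.68 and 3.62 against 60.5 and 60.8 CPM in IRF7KO cells, and 4.6 and 5.36 against 75.1 and 43.6 CPM in C57BL6 cells. In each genotype both RANKL libraries lay below both M-CSF libraries. The log2 fold changes were -1.61 ± 0.41 (SE; edgeR adjusted p = 0.014) and -1.26 ± 0.40 (adjusted p = 0.03) in SREBP2dM and LysMCre cells, and -3.87 ± 0.29 (adjusted p = 3.7e-05) and -3.56 ± 0.29 (adjusted p = 5.3e-05) in IRF7KO and C57BL6 cells. The LysMCre call was lost without any of the 4 M-CSF libraries of its experiment (adjusted p up to 0.103), and the SREBP2dM call without SREBP2dM RANKL or M-CSF replicate 2 (adjusted p up to 0.0763).

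Neutrophil markers moved with F630028O10Rik, which granulocytes are known to express. All 9 were called lower with RANKL in LysMCre, IRF7KO and C57BL6 cells and 8 of 9 in SREBP2dM cells. Their summed level was 5.43 to 6.43 CPM in SREBP2dM RANKL against 70.1 to 166 CPM in SREBP2dM M-CSF cells, 7.6 to 12.6 against 263 to 282 CPM in LysMCre, 4.87 to 20.3 against 405 to 1269 CPM in IRF7KO and 6.13 to 7.73 against 318 to 654 CPM in C57BL6 cells. Their part in the change of F630028O10Rik was not tested. Its promoter, at chrX:96239676-96239975 on the plus strand, is printed because the PU.1 letters stand in it at bases -81 and -67 from the start, in the reverse orientation.
F630028O10Rik: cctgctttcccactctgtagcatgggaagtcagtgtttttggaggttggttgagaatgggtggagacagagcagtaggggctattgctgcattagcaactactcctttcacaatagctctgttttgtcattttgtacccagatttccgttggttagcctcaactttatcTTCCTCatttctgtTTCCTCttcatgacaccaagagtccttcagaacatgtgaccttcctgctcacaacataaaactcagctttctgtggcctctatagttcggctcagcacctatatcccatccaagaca

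GAGGAA occurred in 37.5% of the 8 matched members called lower in both controls, in 27.3% of all matched members and in 28.3% of all promoters. In those 8, TGANTCA occurred in 0%, CACGTG in 12.5% and GGAAA in 87.5%, against 7.81%, 7.15% and 61.3% of all promoters.

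Noncoding RNAs of known classes were followed next, beginning with nuclear RNAs. Malat1, a nuclear speckle RNA, had 769 and 308 CPM in IRF7KO RANKL cells against 345 and 330 CPM in M-CSF, and 737 and 321 against 303 and 390 CPM in LysMCre cells. Its libraries overlapped there, and its log2 fold changes of 0.82, 0.61, 0.67 and 0.33 did not pass in any genotype (edgeR adjusted p 0.28 to 0.6). Neat1, the scaffold of paraspeckles, had 509 and 423 CPM in SREBP2dM RANKL cells against 281 and 153 CPM in M-CSF, and 573 and 378 against 246 and 136 CPM in LysMCre cells. Its log2 fold change was 1.32 ± 0.40 in LysMCre cells (SE; adjusted p = 0.027) and 1.11 ± 0.40 in SREBP2dM cells (adjusted p = 0.0503), and 0.70 and 0.67 in IRF7KO and C57BL6 cells (adjusted p = 0.11 and 0.12). Only the LysMCre change was called, and that call was lost without either SREBP2dM RANKL library, LysMCre RANKL replicate 1 or LysMCre M-CSF replicate 2 (adjusted p up to 0.14). Over both experiments Neat1 was between 136 and 573 CPM. Of 10 paraspeckle protein genes, 8 fell in both SREBP2dM and LysMCre cells, and in IRF7KO and C57BL6 cells 2 fell and 1 rose. Over all genes 27.6%, 28.6%, 23.5% and 22.5% fell in SREBP2dM, LysMCre, IRF7KO and C57BL6 cells.

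Tug1, which overlaps Morc2a on the other strand and is known for binding chromatin regulators, rose in all 4 genotypes. It had 90.9 and 105 CPM in SREBP2dM RANKL cells against 51.5 and 55.5 CPM in M-CSF, 112 and 98.2 against 59.2 and 51.7 CPM in LysMCre cells, 109 and 84.7 against 67.1 and 65.6 CPM in IRF7KO cells, and 90.4 and 84.5 against 64.5 and 62 CPM in C57BL6 cells. All RANKL libraries were above all M-CSF libraries. The log2 fold changes were 0.87 ± 0.13, 0.92 ± 0.13, 0.54 ± 0.13 and 0.47 ± 0.13 (SE; edgeR adjusted p = 0.00065, 0.00041, 0.011 and 0.022). The calls in the IRF7 experiment were lost without RANKL replicate 1 or either M-CSF library of the same genotype (adjusted p up to 0.0985).

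**Figure D3:**
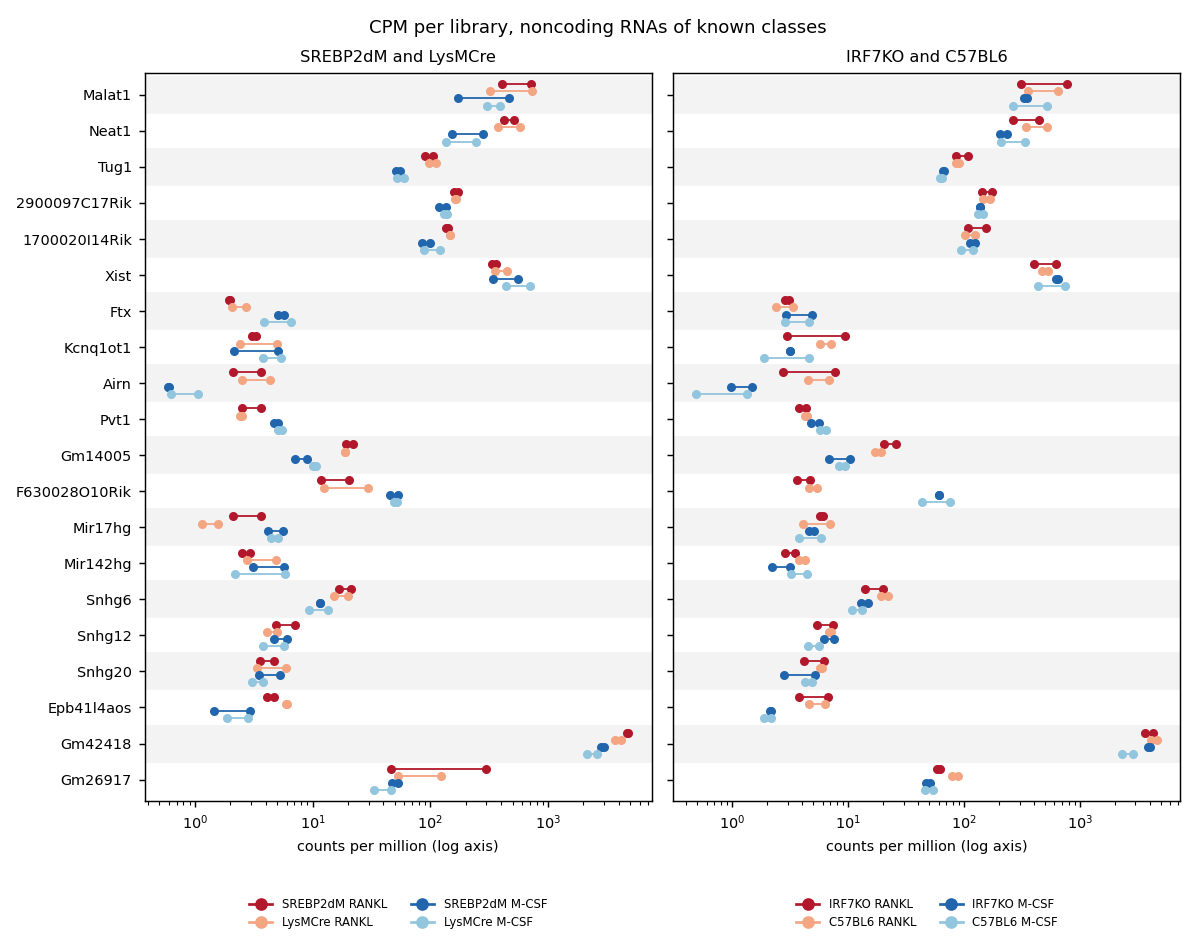
CPM in each library (log axis) of noncoding RNAs of known classes, nuclear, X-linked, imprinted, myeloid, microRNA or small nucleolar RNA hosts and genes that hold ribosomal RNA sequence, by group. Tug1 and Gm14005 lie apart between RANKL and M-CSF in both experiments, whereas Malat1 and Xist overlap.

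On the X chromosome, Xist, the RNA that coats the inactive X, was between 331 and 746 CPM in all 16 libraries and passed in no genotype, with log2 fold changes of -0.37, -0.52, -0.30 and -0.25. Ftx had 1.95 and 1.97 CPM in SREBP2dM RANKL cells against 5.06 and 5.77 CPM in M-CSF, and 2.71 and 2.08 against 6.54 and 3.89 CPM in LysMCre cells. It fell by -1.46 (edgeR adjusted p = 0.0084) and -1.12 (adjusted p = 0.019), and was at -0.40 and -0.41 in IRF7KO and C57BL6 cells, where it was not called. The LysMCre call was lost without LysMCre RANKL replicate 2 or M-CSF replicate 1 (adjusted p up to 0.153).

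Of the imprinted noncoding RNAs listed, Airn, an antisense RNA that silences Igf2r on the paternal allele, rose in all 4 genotypes. It had 3.62 and 2.1 CPM in SREBP2dM RANKL cells against 0.602 and 0.587 CPM in M-CSF, 4.37 and 2.51 against 0.631 and 1.06 CPM in LysMCre cells, 7.62 and 2.76 against 1.48 and 0.975 CPM in IRF7KO cells, and 6.77 and 4.52 against 1.35 and 0.49 CPM in C57BL6 cells. Its log2 fold changes were 2.24, 1.99, 2.05 and 2.58 (edgeR adjusted p = 0.0079, 0.0064, 0.027 and 0.011). Each call was lost in some fits that left out a library: without RANKL replicate 1 in SREBP2dM, LysMCre and IRF7KO cells, without either M-CSF library in IRF7KO cells and without M-CSF replicate 2 in C57BL6 cells (adjusted p up to 0.174). Igf2r, the gene opposite it, which encodes a lysosomal sorting receptor, rose by log2 fold changes of 1.62, 1.68, 1.46 and 1.52. Kcnq1ot1, the silencing RNA of the Kcnq1 domain, was called in no genotype.

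Gm14005, the gene at the Morrbid locus, whose RNA is known to hold down the death gene Bcl2l11 in short-lived myeloid cells, had 21.9 and 19.3 CPM in SREBP2dM RANKL cells against 8.91 and 7.04 CPM in M-CSF, and 18.9 and 19 against 10.1 and 10.8 CPM in LysMCre cells. In the IRF7 experiment it had 26 and 20.4 against 10.3 and 6.82 CPM in IRF7KO cells, and 19 and 17.1 against 9.28 and 8.26 CPM in C57BL6 cells. It rose without overlap in each genotype, by log2 fold changes of 1.37 ± 0.17, 0.86 ± 0.16, 1.43 ± 0.22 and 1.04 ± 0.22 (SE; edgeR adjusted p = 0.00021, 0.002, 0.0013 and 0.0063). Bcl2l11, which lies 15772 bases away and encodes the death protein BIM, rose in all 4 genotypes too, by 1.04, 1.07, 0.64 and 0.98.

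Of the microRNA hosts apart from F630028O10Rik, Mir17hg had 3.62 and 2.1 CPM in SREBP2dM RANKL cells against 4.22 and 5.57 CPM in M-CSF, and 1.15 and 1.56 against 5.12 and 4.46 CPM in LysMCre cells. It fell by a log2 fold change of -1.80 ± 0.37 in LysMCre cells (SE; edgeR adjusted p = 0.0028), and was at -0.78 in SREBP2dM, 0.27 in IRF7KO and 0.23 in C57BL6 cells, where it was not called. Mir142hg was called in no genotype (-0.71, -0.10, 0.26 and 0.07). Pvt1, a neighbour of Myc, fell in LysMCre cells (-1.10, adjusted p = 0.0093) and was at -0.68, -0.36 and -0.50 in SREBP2dM, IRF7KO and C57BL6 cells, where it was not called. Of the microRNA host list, which holds genes of other types as well, 5 of 13 were kept in the SREBP2 experiment, with 1 lower in SREBP2dM and 2 lower in LysMCre cells, and 6 of 13 in the IRF7 experiment, with 1 higher in C57BL6 cells.

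Hosts of small nucleolar RNAs, which guide the modification of ribosomal RNA, were called in part. Snhg6 rose in SREBP2dM (0.71, edgeR adjusted p = 0.029), LysMCre (0.62, adjusted p = 0.041) and C57BL6 cells (0.80, adjusted p = 0.013), and was at 0.29 in IRF7KO cells. Those calls were held in 5, 4 and 6 of 8 fits that left out a library, with adjusted p up to 0.226. Epb41l4aos, which overlaps a small nucleolar RNA gene on chromosome 18, rose in LysMCre (1.34, adjusted p = 0.011), IRF7KO (1.29, adjusted p = 0.02) and C57BL6 cells (1.44, adjusted p = 0.012), with 0.98 in SREBP2dM cells (adjusted p = 0.059). Its calls were held in 7, 5 and 5 of 8 such fits, with adjusted p up to 0.125. Snhg12 and Snhg20 were called in no genotype. Of the 12 kept of 19 listed hosts, most of them of another gene type, 1 rose and 3 fell in SREBP2dM, 3 rose and 3 fell in LysMCre, 1 rose in IRF7KO and 3 rose in C57BL6 cells, where 56.2%, 57.7%, 49.3% and 47.4% of all genes were called.

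Over the lists of known noncoding RNAs, which hold genes of other types as well and are too small for a share to be read against those of all genes, the calls were as follows. In SREBP2dM, LysMCre, IRF7KO and C57BL6 cells, 2, 3, 2 and 2 of 5 kept nuclear RNAs rose and none fell. Of 3 kept X inactivation genes 1 rose in each genotype and 1 fell in SREBP2dM and LysMCre cells. Of 3 kept imprinted RNAs 1 rose in each genotype and 1 fell in IRF7KO cells, and of 3 kept myeloid and immune RNAs 1 rose and 1 fell in each. Of 2 RNAs linked to the cytoplasm or to decay that were kept under their listed names 1 fell, in LysMCre cells. Norad, kept as 2900097C17Rik, was not counted there and rose in SREBP2dM cells (0.37, edgeR adjusted p = 0.017). Nor was 1700020I14Rik, 2010 bases from Oip5, which rose in SREBP2dM (0.58, adjusted p = 0.012) and LysMCre cells (0.49, adjusted p = 0.023). Of 2 kept genes that hold ribosomal RNA sequence 1, 1, 0 and 2 rose. Firre, an X-linked nuclear RNA typed otherwise in the files and so no member, was at 103 to 152 CPM in RANKL libraries against 10.8 to 16.8 CPM in M-CSF libraries and rose in all 4 genotypes.

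Genes for RNA decay were counted as well, and their part in the levels of the members was not tested. Of 15 kept genes of the nuclear RNA exosome and its adaptors, which degrade many noncoding transcripts, 1 rose and 7 fell in SREBP2dM, 1 rose and 9 fell in LysMCre, 1 rose and 3 fell in IRF7KO, and 1 rose and 1 fell in C57BL6 cells. Of 10 genes of nonsense-mediated decay, 2 rose and 2 fell, 3 fell, 1 rose, and 1 rose and 2 fell in the same order. Over all genes 28.6%, 29%, 25.8% and 24.9% rose and 27.6%, 28.6%, 23.5% and 22.5% fell.

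Per kilobase of exon, the highest members over all libraries were Gm42418 at 1961, Gm10076 at 67.2, Malat1 at 63.1, Gm15564 at 43.2 and 2900097C17Rik at 30.05 CPM per kb. Next came 4833415N18Rik at 29.6, 1810058I24Rik at 28.1 and Xist at 27.9 CPM per kb, so a gene silent in M-CSF cells stood beside the cytoplasmic RNA Norad, which 2900097C17Rik encodes. 1810058I24Rik had 140 and 108 CPM in SREBP2dM RANKL cells against 52 and 44.9 CPM in M-CSF, and 98.5 and 90.9 against 46.5 and 58.2 CPM in C57BL6 cells. It rose in all 4 genotypes, by log2 fold changes of 1.35, 1.30, 0.89 and 0.85. Norad rose in SREBP2dM cells (0.37, edgeR adjusted p = 0.017), was lost there without SREBP2dM RANKL replicate 2 or M-CSF replicate 1 (adjusted p up to 0.0948), and was at 0.28, 0.21 and 0.18 elsewhere, not called. Gm42418 and Gm26917 hold ribosomal RNA sequence. Gm42418 had 4825 and 4668 CPM in SREBP2dM RANKL cells against 2824 and 2967 CPM in M-CSF, and 4244 and 3593 against 3831 and 4022 CPM in IRF7KO cells, with log2 fold changes of 0.71 in SREBP2dM, 0.72 in LysMCre, 0.77 in C57BL6 and 0.00 in IRF7KO cells, the last not called. Gm26917 had 295 and 46.3 CPM in SREBP2dM RANKL cells and 124 and 52.7 CPM in LysMCre RANKL cells, so that 1 library stood apart.

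The 2 experiments share no library, and their changes could be set side by side for the 123 members kept in both. The RANKL change had the same sign in both controls for 107 of the 123. In LysMCre and in C57BL6 cells 41 members were called higher (33.3%, against 21.6% of all 10598 shared genes) and 21 lower (17.1%, against 18.2%). Those 62 are 79.5% of the LysMCre calls and 88.6% of the C57BL6 calls among these members, and none was called in opposite directions. The log2 fold changes correlated across the 123 members with a Pearson r of 0.954 and a Spearman rho of 0.904, and across all shared genes with an r of 0.925. Members are not independent replicates, and both controls share the treatment and the gene annotation, so this is a description. In all 4 genotypes 34 members were called higher (27.6%, against 20.2% of all shared genes) and 17 lower (13.8%, against 16.3%), while 30 were called in none. Members that passed the filter only through RANKL groups are among those called higher. These joint shares were not matched by level, so they cannot be read as a trait of noncoding genes.

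**Figure D4:**
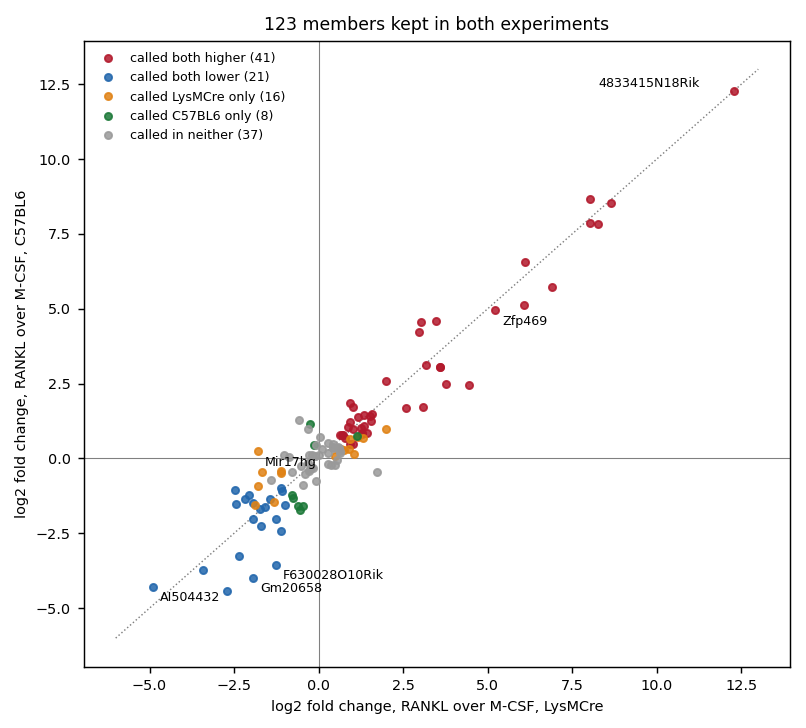
The RANKL log2 fold change of 123 members in LysMCre (x axis) and C57BL6 cells (y axis), coloured by the calls at an adjusted p under 0.05, with a dotted line where both are equal. The 41 members called higher and the 21 called lower in both lie near that line, and values beyond about 7 belong to members at 0 in M-CSF, whose fitted change depends on the prior count.

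Members that overlap exactly 1 kept coding gene on the other strand made 31 pairs in either experiment. The member and its partner changed with the same sign in 21 pairs in SREBP2dM, 20 in LysMCre, 21 in IRF7KO and 17 in C57BL6 cells. Where both were called, 10 of 13, 10 of 14, 12 of 16 and 11 of 14 pairs moved in 1 direction. Across pairs the Pearson r was 0.627, 0.647, 0.479 and 0.487, given as a description, since the strand setting of the counting is not given in the sources used here and reads of a gene and its antisense partner may not be fully told apart. With every tested coding partner counted, 35 of 49 pairs in SREBP2dM and 25 of 47 in C57BL6 cells had the same sign.

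Pairs that fell together included Gm26902, a lincRNA on chromosome 19, and Ch25h, which encodes cholesterol 25-hydroxylase. Gm26902 had 0.278 and 0.131 CPM in SREBP2dM RANKL cells against 3.37 and 2.05 CPM in M-CSF (ratio 0.0766, interval 0.0153 to 0.237), and 0 and 0.433 against 2.92 and 2.83 CPM in LysMCre cells, a log2 fold change of -3.55. Ch25h fell by -5.85 and -6.01. Peak1os fell with Peak1, a gene of a cytoskeletal pseudokinase, with a ratio of 0.0671 in SREBP2dM cells (interval 0.0134 to 0.206) and a log2 fold change of -3.11 in LysMCre cells, where Peak1 was at -2.29. Gm26902 and Peak1os were kept in the SREBP2 experiment only.

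Pairs that rose together included Gm10425 and Exoc3l4, and Gm15156 and Ptchd1, kept in the IRF7 experiment only. Gm10425 had 3.86 and 2.59 CPM in IRF7KO RANKL cells against 0 and 0.217 CPM in M-CSF (ratio 33.1, interval 8.85 to 279), and 3.71 and 2.98 against 0.0793 and 0 CPM in C57BL6 cells (ratio 80.9, interval 14 to 3.24e+03), while Exoc3l4 rose by log2 fold changes of 2.63 and 2.65. Gm15156 had 2.57 and 3.36 against 0.349 and 0.975 CPM in IRF7KO cells and 2.43 and 3.9 against 0.238 and 0.409 CPM in C57BL6 cells. It rose by 2.20 (edgeR adjusted p = 0.011) and 3.28 (adjusted p = 0.0025), and the first of these was lost without IRF7KO M-CSF replicate 1 (adjusted p = 0.0773).

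Other pairs moved in opposite directions. Rptoros rose where Rptor, a subunit of the growth kinase complex mTORC1, fell by -0.84, -0.85, -0.56 and -0.56, and Tug1 rose where Morc2a fell in SREBP2dM, LysMCre and C57BL6 cells (-0.40, -0.62 and -0.49) and was at -0.21 in IRF7KO cells, not called. Bach2os had 1.25 and 0.525 CPM in SREBP2dM RANKL cells against 3.25 and 2.54 CPM in M-CSF, and 2.6 and 1.56 against 5.52 and 4.88 CPM in LysMCre cells. It fell by log2 fold changes of -1.70 and -1.33, and by -2.41 in IRF7KO cells, calls held in 6, 6 and 4 of 8 fits that left out a library (edgeR adjusted p up to 0.248). Bach2, which encodes a transcriptional repressor, rose there by 1.24, 1.46 and 1.20. In C57BL6 cells Bach2os was at -1.44 and did not pass (adjusted p = 0.11). Gm16104 rose in C57BL6 cells (2.31, adjusted p = 0.018, held in 5 of 8 such fits with adjusted p up to 0.105) and was at 1.05 in IRF7KO cells, not called, while Nfic opposite it fell by -1.69 in IRF7KO and -1.58 in C57BL6 cells. Gm16104 was kept in the IRF7 experiment only.

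**Figure D5:**
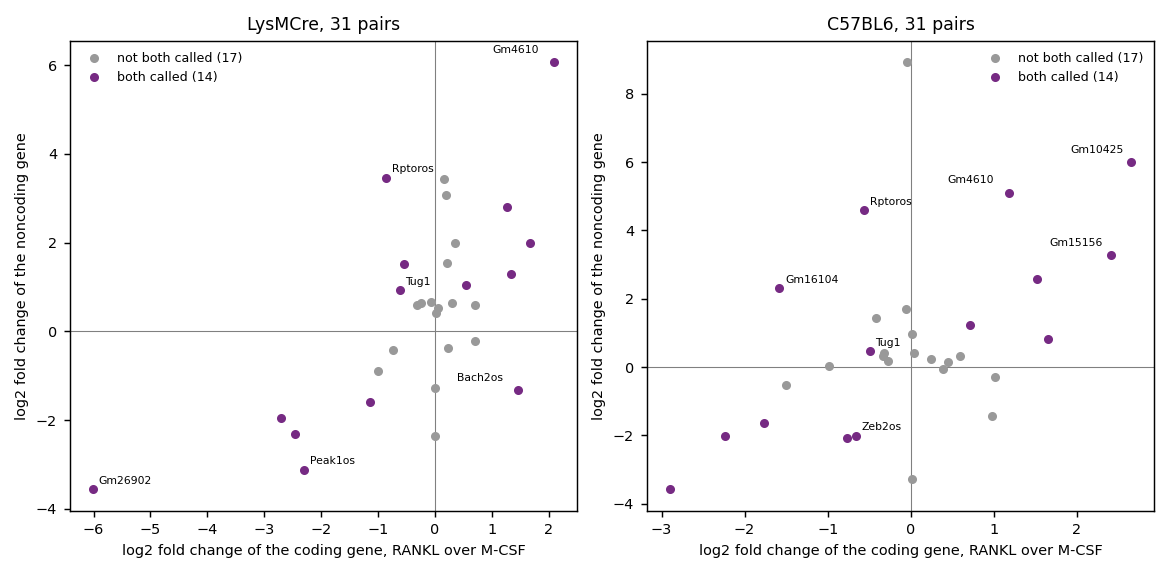
The RANKL log2 fold change of the coding gene (x axis) and of the noncoding gene on its other strand (y axis) in 31 pairs of each control, with pairs in which both were called in purple. In LysMCre cells 10 of 14 purple pairs lie in the lower left or upper right, and in C57BL6 cells 11 of 14.

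For 13 head-to-head pairs with 1 kept partner, 11 had the same sign in SREBP2dM and LysMCre cells, 8 in IRF7KO and 9 in C57BL6 cells. The nearest kept coding gene was taken as well, with overlapping genes included, which for most antisense members meant the gene they overlap. The same sign was seen in 95 of 138 pairs in SREBP2dM, 91 of 138 in LysMCre, 80 of 133 in IRF7KO and 74 of 133 in C57BL6 cells. Across pairs the Pearson r was 0.446, 0.4, 0.381 and 0.375. These pairs hold many of the opposite-strand pairs above again, so they do not describe flanking genes alone.

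Loss of SREBP2 or of IRF7 changed no member past the adjusted threshold. Between SREBP2dM and LysMCre cells, 0 of 140 members were called with RANKL and 0 in M-CSF, where 0.0372% and 0.0557% of all genes were, and 0 in the interaction, where 0% were (edgeR). At an unadjusted p under 0.05 there were 5, 2 and 3 members, against 3.62%, 1.32% and 1.11% of all genes. Between IRF7KO and C57BL6 cells, 0 of 134 were called with RANKL, in M-CSF or in the interaction, where 0.0185%, 0.0185% and 0% of all genes were, and 4, 1 and 3 members had an unadjusted p under 0.05, against 2.94%, 1.31% and 1.12%. DESeq2 also called 0 members in these 6 tests. The median size of the members' log2 fold change was 0.212, 0.197, 0.186 and 0.198 for SREBP2dM over LysMCre with RANKL and in M-CSF and for IRF7KO over C57BL6 with RANKL and in M-CSF, where that of all genes was 0.108, 0.0981, 0.0952 and 0.0877. These values depend on level. With a mean of at least 10 CPM over all 8 libraries, members gave 0.14, 0.152, 0.157 and 0.0714 in the same order. All genes of that level gave 0.0943, 0.0879, 0.084 and 0.0764. An exact permutation test of 2 against 2 libraries cannot go below p = 0.333.

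Members nearest to a difference did not pass, and all had edgeR adjusted p above 0.8. With RANKL, Mir17hg was at 3.62 and 2.1 CPM in SREBP2dM against 1.15 and 1.56 CPM in LysMCre cells (log2 fold change 1.06 ± 0.40, SE, unadjusted p = 0.027), and Gm4610 at 17 and 19.2 against 11.7 and 9.96 CPM (0.74 ± 0.27, unadjusted p = 0.025). 1110002J07Rik was at 4.73 and 4.72 against 2.5 and 3.03 CPM, Gm32856 at 1.39 and 1.71 against 0.729 and 0.606 CPM, and Bach2os at 1.25 and 0.525 against 2.6 and 1.56 CPM. The libraries of the genotypes did not overlap in these 5 members, which they did not for 29.6% of all genes in this comparison.

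In the IRF7 experiment Zeb2os, antisense to the repressor gene Zeb2, was at 2.3 and 3.28 CPM in IRF7KO RANKL cells against 3.96 and 4.67 CPM in C57BL6 RANKL cells (-0.64 ± 0.23, SE, unadjusted p = 0.025). Its RANKL change was -2.79 in IRF7KO and -2.01 in C57BL6 cells, an interaction of -0.78 ± 0.29 (unadjusted p = 0.029). Zeb2os fell with RANKL in SREBP2dM and LysMCre cells as well (-1.81 and -1.26), where Zeb2 was at 0.00 and 0.01, not called. 5430425K12Rik was at 3.67 and 3.19 against 1.79 and 1.99 CPM and Gm37696 at 0.735 and 0.259 against 1.53 and 1.3 CPM in IRF7KO and C57BL6 RANKL cells. In M-CSF, Gm42418 was at 0.62 ± 0.16 (unadjusted p = 0.0049), with 3831 and 4022 CPM in IRF7KO cells against 2838 and 2290 CPM in C57BL6 cells.

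Of the 17 members kept in the SREBP2 experiment only and the 11 kept in the IRF7 experiment only, those with the highest level were AC102496.1, Gm20939 and 1700052K11Rik in the SREBP2 experiment and Gm4316 and Gm39469 in the IRF7 experiment. The first had 1.81 and 6.69 CPM in SREBP2dM RANKL cells against 4.7 and 12.3 CPM in M-CSF, and 3.75 and 7.71 against 9.77 and 15.5 CPM in LysMCre cells, with log2 fold changes of -1.01 and -1.13 that did not pass (edgeR adjusted p = 0.26 and 0.17). Neither Gm20939 nor 1700052K11Rik was called with RANKL. Gm4316 had 5.6 and 6.98 CPM in IRF7KO RANKL cells against 2 and 2.92 CPM in M-CSF, and 7.67 and 7.81 against 2.93 and 2.94 CPM in C57BL6 cells. It rose by log2 fold changes of 1.36 and 1.39 (edgeR adjusted p = 0.0045 and 0.0035). Gm39469 rose by 2.25 in IRF7KO cells and by 1.49 in C57BL6 cells, where the call was lost without C57BL6 RANKL or M-CSF replicate 2 (adjusted p up to 0.0913).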

How the data were processed

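Poly(A)-selected stranded RNA libraries made up 16 samples, 2 for each of 8 groups in 2 experiments. The submitters' processing notes name STAR 2.7.3a, fastp, bcl2fastq 1.8.4, the build mm10 and edgeR. Which program counted reads, whether it used strand, and with which annotation is not given in the sources used here. Raw counts for all genes and for genes passing a filter were deposited by the authors (a group mean of about 3 CPM, as tested on the tables). A deposited sheet of log2 CPM for the same genes was not used.

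Counts of the kept genes were fitted in each experiment separately with edgeR 4.0.16 (R 4.3.3, limma 3.58.1), TMM factors, library sizes from all counts, 1 coefficient per group and robust quasi-likelihood tests, with p-values adjusted by Benjamini-Hochberg over all kept genes. A call is an adjusted p under 0.05. The SE is the size of the log2 fold change over the root of its F statistic, and 4 residual degrees of freedom remained. Where a group had 0 counts, the fold is a bound against 3 counts over the group; with 1 to 3 counts a ratio with a 95% exact counting interval is given. Intervals and bounds cover counting error only. The fits were tested on simulated counts. Log2 values between experiments come from tables normalised separately.

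Members and lists were chosen with earlier results of these data known. Named are the listed noncoding RNAs, the 10 members per direction with the largest mean RANKL change among those called in both controls, up to 5 nearest to a genotype difference, the 10 highest per exon kilobase, 4 antisense pairs moving together and 4 apart, and 5 members kept in 1 experiment. Alternatives were DESeq2 1.42.0, its size factors, another filter, no filter, a replicate block and leaving out each library. Python 3.11.15 with pandas 2.3.3, numpy 2.4.6, scipy 1.17.1 and matplotlib 3.10.9 was used for sums, neighbours, motifs and plots.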

Additional observations from a re-analysis of the deposited data

Results flagged for a closer look

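In these members both RANKL libraries lay above both M-CSF libraries in 1 genotype and below them in the other. The tables of the 2 experiments were normalised separately, and the difference itself was not tested. None of the changes given here was called (edgeR adjusted p 0.0766 to 0.95). Libraries of the 2 treatments lay apart for 78.7%, 80.8%, 76.1% and 75.3% of all genes in SREBP2dM, LysMCre, IRF7KO and C57BL6 cells. A530017D24Rik had a log2 RANKL change of 0.26 in LysMCre and -0.19 in C57BL6 cells, a difference of 0.45. Gm16973 had -0.89 in LysMCre and 0.03 in C57BL6 cells, a difference of -0.92. Mir17hg, the host of the miR-17 to miR-92 cluster, had -0.78 in SREBP2dM and 0.27 in IRF7KO cells, a difference of -1.06.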

How the results depend on the processing

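The RANKL counts of 85, 90, 74 and 80 members in SREBP2dM, LysMCre, IRF7KO and C57BL6 cells were 85, 91, 74 and 80 with DESeq2 size factors, 72, 80, 68 and 73 with the DESeq2 Wald test, 84, 90, 74 and 79 with edgeR's own filter and 94, 98, 80 and 86 without a filter on low counts. Leaving out 1 library gave 61 to 82, 70 to 91, 49 to 74 and 51 to 82, with the lowest counts in fits without M-CSF libraries of the same genotype in the IRF7 experiment (49 without IRF7KO M-CSF replicate 1, 53 and 51 without C57BL6 M-CSF replicates 1 and 2). With a replicate block the counts were 90, 94, 86 and 88. All counts in this section cover only the 140 and 134 members that the authors' filter kept, also where more genes were fitted. Members dropped by that filter were not counted. Of all genes, 51.2%, 52.2%, 46.3% and 45.1% were called with the DESeq2 Wald test, and 31.4%, 33%, 28.6% and 28% without a filter. Nothing in the labels says what a replicate number stands for, and with 2 numbers a pairing cannot be settled. Deviations of same-numbered libraries correlated at 0.68 and 0.721 between the RANKL groups of an experiment and at 0.0574 to 0.47 in the other pairs of groups. The block lost no call of a named member and added 12: AC102496.1 (edgeR adjusted p = 0.0187), Epb41l4aos (0.0436) and Neat1 (0.00033) in SREBP2dM, AC102496.1 (0.00423) in LysMCre, Gm10076, Gm15564, Gm16104, Gm26917 and Neat1 in IRF7KO, and Bach2os (0.0107), Kcnq1ot1 and Neat1 in C57BL6 cells. The genotype and interaction counts stayed at 0 under every alternative except without a filter, which gave 1 member between SREBP2dM and LysMCre cells with RANKL (Gm26917, 0.96, edgeR adjusted p = 1.7e-06), 1 in M-CSF (Gm36161, adjusted p = 0.0376) and 1 between IRF7KO and C57BL6 cells in M-CSF (Gm42418, adjusted p = 0.0132). The cause was not tested. No result reversed. Of named members called with RANKL, 23 of 37, 29 of 41, 23 of 33 and 26 of 39 were called in all 8 fits without a library, and DESeq2 kept 34, 38, 32 and 37. A single count was worth 0.0708 to 0.139 CPM, so members near 0 in a group carry wide intervals.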
